A study of Komagataella phaffii with 102 samples.

Results

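The genes described here were the 150 with the most even expression over 11 strains and 3 culture conditions in Komagataella phaffii. This yeast, formerly Pichia pastoris, can live on methanol and is a common host for recombinant proteins. The 150 were drawn from 5116 genes with RNA-seq values. In each library, counts were divided by the library total to give counts per 1000000 (CPM), log2(CPM + 1) was averaged over the libraries of each strain and condition, and the SD of the 33 group means was taken. Among the 2755 genes with a mean of 50 to 1000 CPM over the groups, the 150 with the lowest SD were kept, which left 2605 other genes at this level for comparison. Because CPM of these same libraries chose the genes, their levels, spreads and fold changes are a description and carry no test.

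All strains were nontransgenic. The groups were Y-11430, Y-12729, Y-48123, GS115, Y-48124, X-33, Y-7556, YB-4290, YB-4289, YB-378 and Y-17741, each as 24 h glycerol, 48 h glycerol and methanol cultures. Reads of every strain were aligned to an assembly of Y-11430. GS115 is a histidine auxotroph made from Y-11430 by mutagenesis, and Y-48124 is a banked strain of X-33. Cultures grew in multiwell plates in complex medium with 4% glycerol and were collected after 24 h, or were moved to fresh glycerol medium or to medium with 1.5% methanol and collected after a further 24 h. Glycerol had 36 libraries at 24 h and 28 at 48 h, and methanol had 38, with 1 to 7 libraries a group, and the labels did not say whether the replicate letters stood for separate cultures.

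A reference gene is a gene whose transcript level is taken as constant, so that the transcripts of other genes can be expressed relative to it, as in quantitative PCR. In this yeast the choice is demanding, because a shift from glycerol to methanol calls up the enzymes of methanol oxidation and formaldehyde assimilation and builds peroxisomes, and these transcripts can take a large part of the messenger pool. A share of the pool, which CPM is, then falls for other genes even where their amount per cell does not. Here the amount of a transcript per cell and its share of the library cannot be told apart. Genes are given by the identifiers of the annotation, because no table at hand paired any of the 150 with a symbol, so neither their functions nor reference genes in common use, such as actin, could be looked up, and no sequence is shown.

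Totals per library ran from 70901 to 16336681 counts around a median of 3810597, and 6 libraries had under 1000000. Of the deposited TPM (transcripts per 1000000), 5.36% to 46.2% of a library lay in features not analysed here, and the medians were 16% for 24 h glycerol, 25.1% for 48 h glycerol and 26.5% for methanol. The part of this share in the results was not tested. Y-48123 at 48 h glycerol had 1 library, so its mean had no replicate. Of 93 libraries with at least 2 others in their group, 4 methanol libraries (X-33 C, Y-12729 B, Y-48123 C and Y-48124 C) and 2 of Y-48124 in glycerol (24 h B and 48 h A) lay farthest from those others, with at most 1 counted a group. The SD of their difference over the genes at 50 to 1000 CPM was 0.784 to 1.58, where the median library had 0.355. When these 6 libraries were left out, 138 of the 150 genes were chosen again.

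The 150 genes had SDs of 0.178 to 0.311 over the 33 means on the log2(CPM + 1) scale, with a median of 0.276, where the other genes at this level had a median of 0.681 and reached 3.57. Between the highest and the lowest group the means of a stable gene differed 1.54-fold to 3.40-fold, with a median of 2.18-fold, against a median of 6.04-fold in the other genes. Only 32 of the 150 genes (21.3%) stayed within a 2-fold range over all groups, and none of the 2605 others did. Most of the steadiest genes of these libraries thus still varied by more than 2-fold between some pair of groups.

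**Figure D1:**
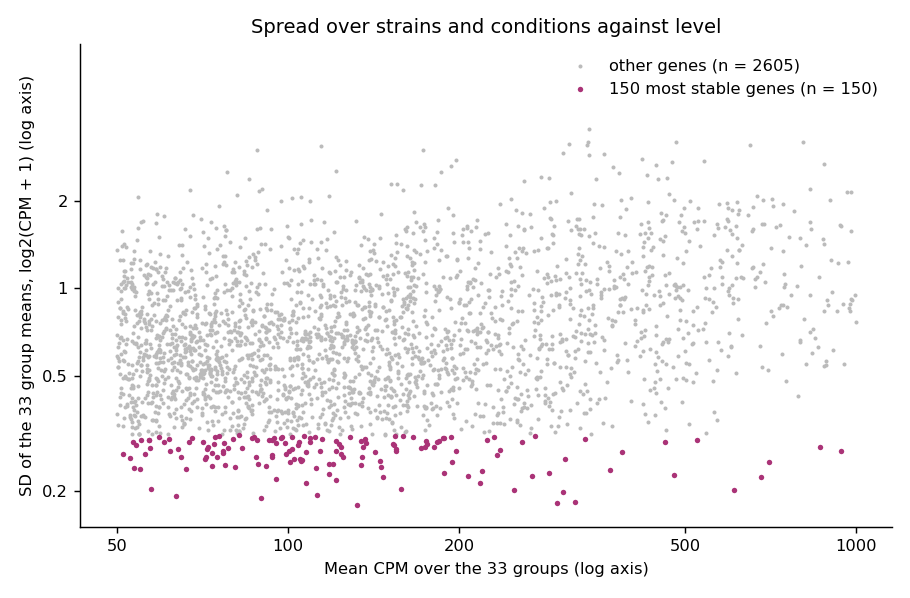
SD of the 33 group means of log2(CPM + 1) against mean CPM, both on log axes, for the 150 most stable genes (purple) and the 2605 other genes at 50 to 1000 CPM (grey). The stable genes lie at SDs of 0.178 to 0.311 at levels from 51.3 to 941 CPM, and most of them lie below 200 CPM.

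The limit of the set fell in a dense range of SDs. Just inside it, GQ67_00233 had an SD of 0.310 and GQ67_04783 an SD of 0.311, and just outside it GQ67_02051 had 0.311 and GQ67_04428 had 0.313. Their group means ran from 69.9 to 192 CPM in GQ67_00233, from 50.9 to 131 in GQ67_04783, from 97.5 to 242 in GQ67_02051 and from 56.6 to 135 in GQ67_04428. Genes on either side of the limit thus had similar spreads, and membership near it is a matter of small differences.

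The levels of the 150 genes were moderate. Their mean CPM ran from 51.3 to 941 with a median of 110.3, and the other genes at this level had a median of 128. There were 60 stable genes at 50 to 100 CPM, 63 at 100 to 200, 21 at 200 to 500 and 6 at 500 to 1000 CPM, or 40%, 42%, 14% and 4%, where the shares of the other genes were 37.7%, 31.9%, 23.4% and 7.06%. On the TPM scale, which is per length and so allows genes to be compared, the stable genes ran from 17.5 to 961 TPM with a median of 67.9. Together they took 1.98% to 2.86% of the counts of a library.

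The upper end by TPM was held by 3 genes. GQ67_00130 (chromosome 2, 192399 to 193172, minus strand) had a mean of 961 TPM over the groups, GQ67_04300 (chromosome 3, 2251297 to 2252769, minus strand) had 611 and GQ67_03881 (chromosome 3, 1512666 to 1514777, minus strand) had 458. GQ67_00130 had 401, 772 and 1005 CPM (lowest, median and highest library) at 24 h, 453, 709.5 and 987 at 48 h, and 398, 664 and 881 in methanol, so the conditions overlapped almost wholly. At the lower end were GQ67_02436 with 17.5 TPM, GQ67_03264 with 18.5 and GQ67_03825 with 18.9, which have long transcripts of 4532, 4125 and 2909 bases and therefore still gave 77.3, 74.1 and 53.3 CPM.

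The gene with the lowest SD was GQ67_00643 (chromosome 2, 1090480 to 1092346, plus strand), with an SD of 0.178 and a mean of 132 CPM. It had 109.7, 125 and 255 CPM (lowest, median and highest of 36 libraries) at 24 h glycerol, 90.7, 126 and 184 CPM (28 libraries) at 48 h glycerol, and 84.6, 135 and 184 CPM (38 libraries) in methanol. The conditions overlapped throughout, and 2 libraries stood above the rest at 24 h glycerol, Y-48124 replicate B with 255 CPM and YB-4290 replicate B with 244, where the next had 156. The lowest value, 84.6 CPM in X-33 methanol replicate C, rested on 6 counts. Its lowest group was Y-12729 at 48 h glycerol with 96.8 ± 5.94 CPM (SD, n = 3) and its highest was Y-48124 at 24 h glycerol with 168 ± 75.7 CPM (SD, n = 3). Between replicates, pooled over groups, the SD of GQ67_00643 was 0.254. This was larger than its SD over groups and above the median of the 150 genes, 0.227. The 2 SDs are unlike, as that between replicates is of single libraries and that over groups is of means of 1 to 7 libraries. With the replicate part of the variance of the means subtracted, the SD of GQ67_00643 over groups was 0.0925.

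GQ67_00144 (chromosome 2, 212893 to 214329, minus strand) had an SD of 0.181 and the smallest range of group means, 0.625 on the log2 scale or 1.54-fold. Its libraries had 216, 292 and 371 CPM (lowest, median, highest) at 24 h, 228, 312 and 400.0 at 48 h, and 212, 273 and 581 in methanol. The methanol libraries were the most spread, because Y-48123 replicate C with 581 CPM and Y-48124 replicate C with 549 stood above the next, which had 406. Both are among the 6 libraries that lay apart from their groups. The SD of GQ67_00144 between replicates, 0.227, was also larger than its SD over groups, with the same limit. With the replicate part subtracted, its SD over groups was 0.120.

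GQ67_04628 (chromosome 4, 624036 to 625873, plus strand) had an SD of 0.183 and the lowest SD between replicates of all 150 genes, 0.107. It had 248, 296 and 388 CPM (lowest, median, highest library) at 24 h, 273, 311 and 401 at 48 h, and 233, 342 and 453 in methanol. No library stood far from the rest. The groups ran from 259 ± 13.8 CPM (SD, n = 3) in YB-378 at 24 h glycerol to 415 ± 5.43 CPM (SD, n = 3) in Y-48124 in methanol. The SD between groups was larger than that between replicates, and was 0.171 with the replicate part subtracted. Its span overlaps that of a neighbouring gene, GQ67_04629, by 53 bases.

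The next genes in rank had lower levels. GQ67_00765 (chromosome 2, 1327696 to 1328631, plus strand; SD 0.188) had 69.2, 85.4 and 119 CPM at 24 h, 78.1, 92.3 and 129 at 48 h, and 57.6, 79.9 and 169 in methanol, where the highest value came from 12 counts in X-33 replicate C. GQ67_03088 (chromosome 3, 176322 to 177827, minus strand; SD 0.191) had 51.6, 62.9 and 88.8 CPM at 24 h, 39.9, 59.9 and 109 at 48 h, and 45, 61.8 and 79.3 in methanol. Its medians were close to each other, and its extremes belonged to strains at 48 h glycerol, with 42.9 ± 4.28 CPM (SD, n = 2) in GS115 and 94.9 ± 12.6 CPM (SD, n = 3) in YB-378. GQ67_03088 shares 345 bases of its span with GQ67_03087. Between replicates the SD was 0.234 in GQ67_00765, above its SD over groups, and 0.180 in GQ67_03088, below it. With the replicate part subtracted, the SD over groups was 0.125 in GQ67_00765 and 0.158 in GQ67_03088.

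**Figure D2:**
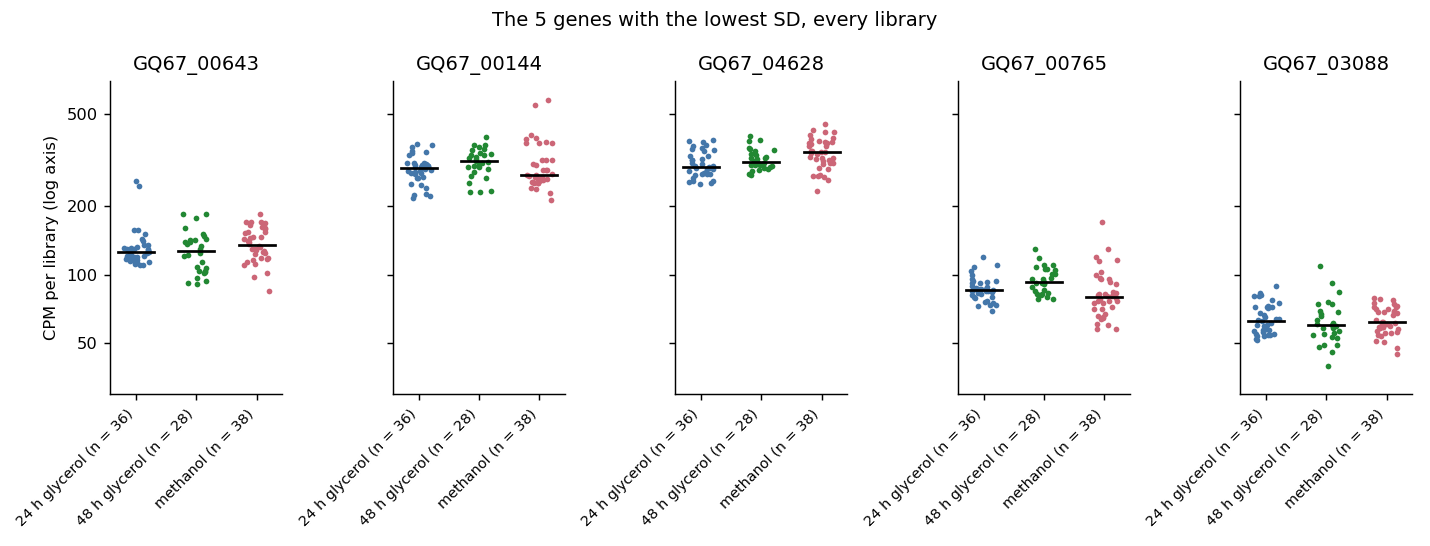
CPM in every library (points, log axis) of the 5 genes with the lowest SD, by condition, with the median as a bar. The conditions overlap in all 5 genes, and single libraries stand out, such as 255 CPM in GQ67_00643 at 24 h glycerol and 581 CPM in GQ67_00144 in methanol.

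The mean log2(CPM + 1) of these 5 genes varied less between groups than any of them alone. It had an SD of 0.102 over the 33 groups and a 1.31-fold range, from YB-4289 at 24 h glycerol to YB-378 at 48 h glycerol, and a pooled SD of 0.112 between replicates. Over single libraries it ran from -0.255 in YB-4290 24 h glycerol replicate C to 0.385 in Y-12729 methanol replicate B around its mean. The 5 genes had been chosen on these libraries.

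Among stable genes of other levels, the lowest SDs at 100 to 200 CPM were those of GQ67_00643 and of GQ67_04257 (chromosome 3, 2174876 to 2177041, plus strand), which had an SD of 0.193 and medians of 104 CPM at 24 h, 116 at 48 h and 108 in methanol. At 500 to 1000 CPM the lowest were GQ67_00948 (chromosome 2, 1682391 to 1686887, plus strand), with an SD of 0.201 and medians of 612, 685 and 540.0 CPM in the same order, and GQ67_00696 (chromosome 2, 1196000 to 1198456, minus strand), with an SD of 0.222 and medians of 717, 608 and 628 CPM. These highly expressed genes rested on more reads, with a lowest count of 40 in GQ67_00948 and 62 in GQ67_00696 over all libraries, where the lowest counts of the 150 genes had a median of 8. For every one of the 150 genes the lowest count was in X-33 methanol replicate C, and in every other library none had fewer than 10 counts.

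Spread between replicates was not used by the rule as such, although a gene with a larger replicate spread also has noisier means. The pooled SD within strain and condition, on 69 degrees of freedom, had a median of 0.227 in the stable genes (0.107 to 0.371) and of 0.335 in the other genes at this level. Counting alone gave a median SD of 0.0957 in the stable genes and 0.104 in the others, so most of the replicate spread was not counting error in either set. When the part of the variance that replicate spread contributes to the means was subtracted, the SD over groups had a median of 0.237 in the stable genes and 0.650 in the others. Without the 6 libraries far from their groups, the median replicate SD of the stable genes was 0.185.

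The tightest replicates were found in GQ67_04628 (0.107), GQ67_03604 (0.108) and GQ67_05349 (0.110). GQ67_03604 (chromosome 3, 1034302 to 1035789, minus strand) had 126, 160.5 and 203 CPM (lowest, median, highest library) at 24 h, 172, 201 and 225 at 48 h, and 133, 235 and 304 in methanol. GQ67_05349 (chromosome 4, 1704809 to 1706869, minus strand) had 499, 621 and 773 CPM at 24 h, 353, 465 and 676 at 48 h, and 299.9, 462 and 787 in methanol. In both genes replicates were close while conditions were shifted, GQ67_03604 being lower and GQ67_05349 higher at 24 h glycerol than in the other conditions by their medians.

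The loosest replicates belonged to GQ67_04182 (0.371), GQ67_03767 (0.368) and GQ67_02175 (0.358). GQ67_04182 (chromosome 3, 2036535 to 2037629, minus strand) had 65.7, 87.7 and 337 CPM at 24 h, 65.0, 109 and 197 at 48 h, and 63.5, 94.8 and 141 in methanol. Its highest value was that of Y-48124 24 h glycerol replicate B, which also held the highest value of GQ67_03767 at that time, 255 CPM against a median of 82.5. This library held the highest value of 27 stable genes and the lowest of 7, so 34 of the 150 (22.7%) had an extreme there. X-33 methanol replicate C, the shallowest library, held an extreme of 22.

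The part that conditions and strains took in the variance of the 33 means differed from that in other genes. Condition means took a median of 26.8% of the variance in the stable genes and 60.2% in the others. Strain means took 32.5% and 15.9%, and the remainder took 35.7% and 20.4%. The remainder holds differences of strains between conditions together with replicate noise of the group means, which these shares do not separate. Subtracting that noise lowered the median SD over groups from 0.276 to 0.237 in the stable genes and from 0.681 to 0.650 in the others. The rule chose on the total of these parts, so the shares are a description. GQ67_03088 had 1.17% of its variance between conditions and GQ67_02175 had 0.856%, while in GQ67_00438 condition took 68.1%. By the mean of the 11 strains, 45 stable genes were highest at 24 h, 60 at 48 h and 45 in methanol.

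Strains contributed unevenly. The group farthest from a gene's mean belonged to Y-17741 in 42 of the 150 genes (28%), to GS115 in 23, to X-33 in 22, to YB-378 in 19 and to YB-4289 in 15, and to each of the other strains in 3 to 8. Y-11430, the strain of the assembly, held the farthest group of 3. It had 6 libraries at 24 h, 3 at 48 h and 7 in methanol, where groups of the other strains had 1 to 4. Means of fewer libraries are noisier, and Y-48123 at 48 h glycerol, with 1 library, was the farthest group of 8 genes. The part of library number was not tested. By condition, the farthest group was a 24 h glycerol group in 16 genes, a 48 h glycerol group in 65 and a methanol group in 69.

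The deviations had a common sign in some groups. The median stable gene lay 0.218 below its mean in GS115 at 48 h glycerol (2 libraries), which was the lowest group of 17 genes, and 0.241 above it in YB-378 at 48 h glycerol (3 libraries), which was the highest group of 22. Y-17741 in methanol (4 libraries) was the highest group of 20 genes and the lowest of 9, with deviations from -0.915 to 1.11. X-33 in methanol was the lowest group of 19 genes. Less its mean over all libraries, the mean level of the stable genes was -0.265 in its replicate A, with 3801161 counts. It was -0.0842 in replicate B and -0.0426 in replicate C, the library of 70901 counts. Replicates A and C each held the lowest value over all libraries of 15 stable genes. The deviations of X-33 in methanol ran from -1.15 to 0.69, the lowest of any group.

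**Figure D3:**
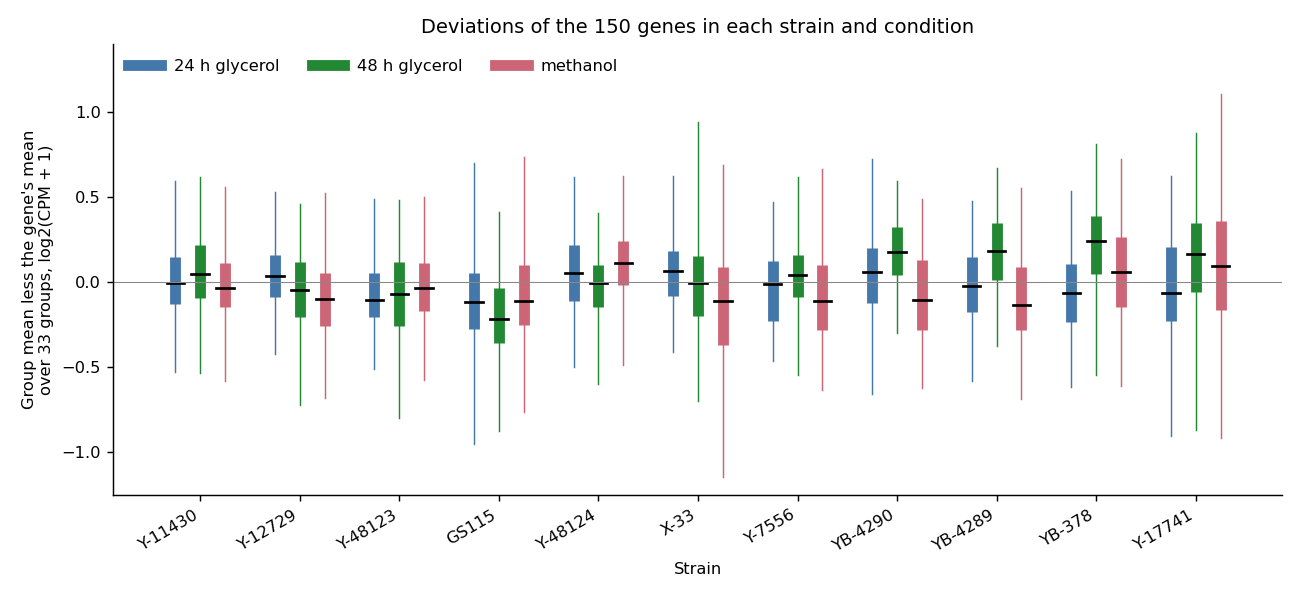
Deviation of the 150 genes from their own mean over 33 groups, log2(CPM + 1), for each strain and condition (24 h glycerol blue, 48 h glycerol green, methanol red). Thin lines span all genes, thick bars the quartiles and black bars the median. Medians lie between -0.218 in GS115 and 0.241 in YB-378, both at 48 h glycerol, and Y-17741 in methanol has the widest span.

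The largest ranges over groups often came from 1 or 2 groups. GQ67_04099 (chromosome 3, 1893906 to 1894733, minus strand) had a range of 1.76 on the log2 scale, because X-33 in methanol had 53.6 ± 5.53 CPM (SD, n = 3), while the next lowest group, Y-48124 at 48 h glycerol, had 103 ± 20.7 (SD, n = 3) and the highest, Y-7556 at 48 h glycerol, had 184 ± 10.04 (SD, n = 2). GQ67_03289 (chromosome 3, 496112 to 496492, plus strand) had a range of 1.62, with 47.8 ± 19.8 CPM (SD, n = 3) in X-33 in methanol. In replicate C of that group the values rested on 4 counts in GQ67_04099 and 5 in GQ67_03289, so these group means and SDs are imprecise. GQ67_03264 (chromosome 3, 454945 to 459069, minus strand) had a range of 1.61, from 38.4 ± 3.65 CPM (SD, n = 3) in Y-17741 at 24 h glycerol to 120 ± 19.4 (SD, n = 3) in X-33 at 48 h glycerol. In GQ67_03264 the next lowest group was again Y-17741, in methanol, with 46.9 ± 12.0 CPM (SD, n = 4).

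Condition contrasts were fitted on the 5087 genes tested, as the average of 10 strains, since Y-48123 had only 1 library at 48 h glycerol. TMM scaling (trimmed mean of M values, which sets the bulk of genes equal between libraries) was used there, whereas the rule had used library totals. With library totals in the same model, the median of all genes moved by -0.22 for methanol against 48 h glycerol and by -0.13 for 48 h against 24 h glycerol on the log2 scale. The direction of a small change of a stable gene therefore depended on the scaling.

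For methanol against 48 h glycerol, 103 of the 150 genes passed an adjusted p of 0.05 in edgeR, where 83.3% of all genes tested passed. There were 74 higher and 29 lower in methanol, beside 42.8% and 40.5% of all genes. With library totals the split turned to 36 higher and 69 lower (24% and 46%), and that of all genes tested to 32.3% and 49.3%. The sign differed between the scalings in 14 of the 103 genes that passed with TMM and in 2.74% of such genes overall. No stable gene reached a 2-fold change, which 26.6% of all genes did. The median log2 fold change of the stable genes was 0.13 with TMM and -0.10 with library totals, and all lay between -0.36 and 0.75 with TMM. The rule used these groups, so nothing is read from the counts. Of the 5 genes with the lowest SD, GQ67_00643 (0.35, SE 0.07), GQ67_04628 (0.25, SE 0.05) and GQ67_03088 (0.27, SE 0.05) passed with TMM. GQ67_00144 and GQ67_00765 did not. By CPM, GQ67_00643 was higher in methanol in 5 of 10 strains.

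The largest rises in methanol were those of GQ67_04465 (chromosome 4, 339988 to 341889, plus strand), with a log2 fold change of 0.75 (SE 0.06), and GQ67_01186 (chromosome 2, 2091068 to 2092414, plus strand), with 0.69 (SE 0.06). By group means both were higher in methanol in 10 of 10 strains. GQ67_04465 had 64.1, 83.8 and 129 CPM (lowest, median, highest library) at 48 h glycerol and 79.1, 119.6 and 177 in methanol, and the conditions overlapped. The largest falls were -0.36 (SE 0.05) in GQ67_04120 and -0.34 (SE 0.05) in GQ67_05357, of which GQ67_04120 was higher in methanol in 0 of 10 strains and GQ67_05357 in 1.

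For 48 h against 24 h glycerol, 109 of the 150 genes passed, where 83.1% of all genes tested did. There were 89 higher and 20 lower at 48 h, beside 41.2% and 41.8% of all genes, and 56 higher and 29 lower (37.3% and 19.3%) with library totals, where all genes tested had 35.2% and 46.9%. None reached 2-fold, where 27.8% of all genes did, and the median log2 fold change was 0.20 with TMM and 0.07 with library totals. GQ67_03542 had the largest rise, 0.69 (SE 0.06), with 41.6, 57.6 and 75.9 CPM at 24 h glycerol and 63.5, 82.6 and 152.4 at 48 h, followed by GQ67_00438 with 0.61 (SE 0.06). The largest falls were -0.41 (SE 0.06) in GQ67_04590 and -0.39 (SE 0.06) in GQ67_04783. Of the 5 genes with the lowest SD, GQ67_00144 (0.24, SE 0.08), GQ67_04628 (0.21, SE 0.05) and GQ67_00765 (0.25, SE 0.06) passed with TMM. GQ67_00643 and GQ67_03088 did not.

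In tests of equality of the 11 strains, which use the values that chose the genes, an adjusted p under 0.05 in edgeR was found for 88 stable genes at 24 h, 65 at 48 h and 136 in methanol, beside 83.4%, 62.3% and 92.2% of all genes tested. The first 2 counts depended on the libraries with letter B, without which they were 45 and 16, and the shares of all genes tested were then 61.9% and 26.9%. Leaving out letter B removed the only library of Y-48123 at 48 h glycerol and left fewer libraries in most other groups. Of the 150 genes, 17 passed all 5 tests, 54 passed 4, 49 passed 3 and 24 passed 2, or 11.3%, 36%, 32.7% and 16%, beside 38.0%, 36.9%, 17.9% and 5.96% of all genes tested. The rule used the means of these groups, so these counts are a description too.

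The rule for named genes asked for stable genes that passed none of the 5 tests and had 95% intervals of both condition contrasts within log2 changes of -0.2 to 0.2, and no gene met it. The 1 gene that passed no test, GQ67_00752 (chromosome 2, 1307161 to 1307637, plus strand), was named after its values had been seen. It also passed neither condition contrast with library totals. It had 21.4, 79.1 and 105 CPM (lowest, median, highest library) at 24 h, 38.5, 70.6 and 106 at 48 h, and 33.7, 64.0 and 91.5 in methanol. Its SD of 0.257 put it at rank 46, and its 95% intervals were -0.09 to 0.30 for methanol against 48 h glycerol and -0.20 to 0.18 for 48 h against 24 h glycerol, which do not show that it was constant. Its lowest library at 24 h glycerol was Y-48124 replicate B. The SD of GQ67_00752 between replicates, 0.328, was above the upper quartile of the 150 genes, 0.259. For methanol against 48 h glycerol its SE, 0.0976, was the largest of the 150, so a change was harder to detect in it.

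Both intervals lay within -0.2 to 0.2 for 8 stable genes (5.33%) and 0.334% of all genes tested with TMM, and each of the 8 passed the test between strains in at least 1 condition. With library totals none of these 8 kept both intervals in that range, and 9 other stable genes (6%) did, beside 0.236% of all genes tested. With TMM, the highest of the 8 in level was GQ67_00130, with a log2 fold change of -0.01 (95% interval -0.16 to 0.14) for methanol against 48 h glycerol and 0.02 (-0.13 to 0.17) for 48 h against 24 h glycerol. The first of the 8 by SD was GQ67_03567, at rank 19, with 0.03 (-0.09 to 0.16) and 0.07 (-0.05 to 0.19). For methanol against 48 h glycerol, library totals gave -0.22 (-0.34 to -0.10) in GQ67_00130 and -0.18 (-0.29 to -0.07) in GQ67_03567. For methanol against 48 h glycerol the SD over strains of this difference was 0.20 in GQ67_00130 and 0.24 in GQ67_03567, and by CPM each was higher in methanol in 2 of 10 strains. GQ67_03567 was picked after its values had been seen.

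Scaling changed which genes ranked as most stable. With TMM-scaled totals 84 of the 150 genes remained, with RLE size factors (the median ratio method of DESeq2) 90 remained, and with the deposited log2(TPM + 1) in place of log2(CPM + 1) 125 remained. The SD of the 33 means of the 150 genes then had a median of 0.282 with TMM, 0.277 with RLE and 0.311 with TPM. All 5 leading genes stayed in the set under all 3 scalings, but their ranks with TMM were 38 for GQ67_00643, 67 for GQ67_00144, 92 for GQ67_04628, 29 for GQ67_00765 and 35 for GQ67_03088. GQ67_05321, at rank 63 by the rule, was at rank 3 with TMM, with an SD of 0.168, and GQ67_00696 and GQ67_00948 were at ranks 10 and 11.

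Of the 150 genes, 71 remained under all 3 other scalings, and 56 remained under these and also with every library and every strain left out in turn. The 5 leading genes were among the 56. Leaving out a single library kept 142 to 150 genes, and leaving out a strain kept 117 to 144, the fewest without Y-17741. Without 24 h glycerol 80 genes remained, without 48 h glycerol 94 and without methanol 55, but a condition takes 11 of the 33 means with it and a strain 3, so these counts are not comparable with those for strains.

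To measure the genes in libraries that had not chosen them, each strain was left out in turn, 150 genes were chosen on the other 10 strains, and their absolute difference from the mean of the other strains in the same condition was taken in the strain left out. The median difference was 0.150 on the log2 scale over the 11 strains, and ran from 0.122 in Y-12729 to 0.292 in Y-17741. All genes at 50 to 1000 CPM had a median difference of 0.268, from 0.204 in Y-48124 to 0.421 in Y-17741, and the chosen genes were below them in 11 of 11 strains. In the median strain, 97.1% of the differences of the chosen genes were under 0.5, against 75.3% of those of all genes at this level, but in Y-17741 the shares were 72.9% and 56.9%. Genes are not replicates and the strains are related, so these values carry no test.

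**Figure D4:**
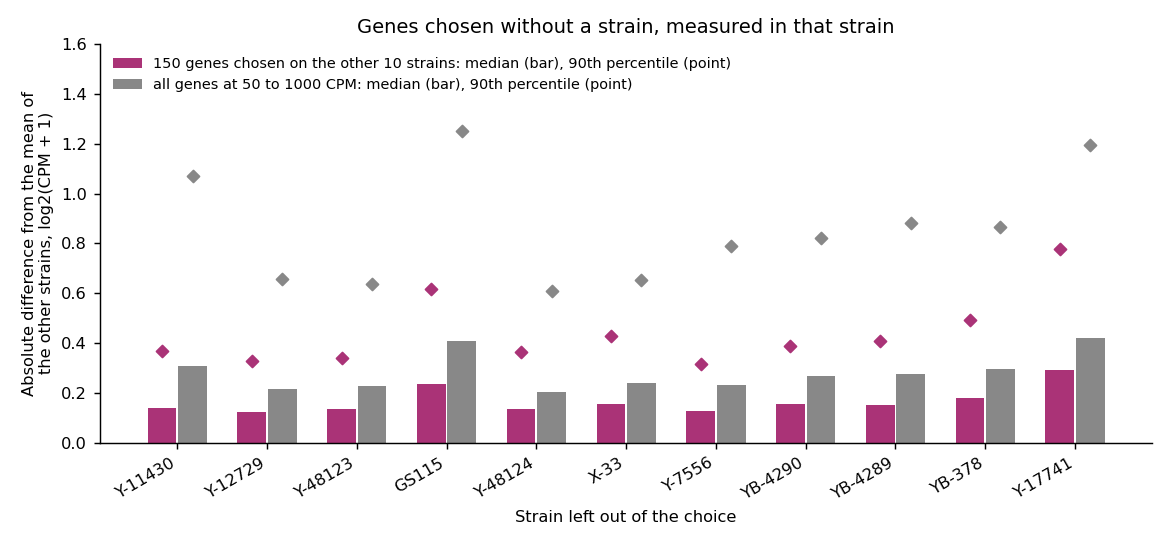
Absolute difference, in log2(CPM + 1), between the strain left out and the mean of the other strains in the same condition, for 150 genes chosen on the other 10 strains (purple) and all genes at 50 to 1000 CPM (grey). Bars give the median over genes and conditions and points the 90th percentile. The purple bars are lower in every strain, and those of GS115 and Y-17741, at 0.235 and 0.292, are the highest.

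By the median over strains, a mean of several chosen genes was closer to the other strains than 1 gene was. This did not hold in every strain, as in Y-12729 the mean of 3 genes differed by 0.155 and 1 gene by 0.114. The gene with the lowest SD among the other 10 strains differed in the strain left out by a median of 0.216, and by up to 0.783 in 1 condition of Y-17741. The mean of the first 3 genes differed by 0.0958, that of the first 5 by 0.111 and that of the first 10 by 0.0737 (medians over the 11 strains of the median over conditions). The largest differences in any strain and condition were 0.596 with 3 genes, 0.344 with 5 and 0.283 with 10, each in GS115. By the median over single genes, Y-17741 and GS115 were the strains in which genes chosen elsewhere differed most.

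The same was done with each condition. Genes chosen on both other conditions had a median absolute difference of 0.299 at 48 h, 0.350 at 24 h and 0.510 in methanol from their mean over those conditions, where all genes at this level had 0.424, 0.628 and 0.713. In methanol the first gene was off by 0.628, the mean of the first 3 by 0.925, of the first 5 by 0.408 and of the first 10 by 0.404, so the mean of 3 was farther off than 1 gene. The mean of 5 was off by 0.0423 at 48 h and 0.198 at 24 h. Methanol had the largest difference of the 3 conditions for single genes and for the mean of 5.

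The joint level of the 150 genes in a library, their mean log2(CPM + 1) less its mean over all libraries, ran from -0.306 in Y-12729 methanol replicate C to 0.320 in YB-378 48 h glycerol replicate B, the library with the most counts. Its SD over libraries was 0.122, against 0.192 for the other genes at this level. CPM of these libraries chose the genes, so the smaller SD is a description. After TMM scaling the SD of the joint level of the stable genes was 0.155. That of the other genes was not computed after TMM, so the smaller SD of the stable genes is shown for CPM only. The log2 TMM factors had an SD of 0.203 over libraries. The lowest factor, in Y-48123 methanol replicate C, was -0.597 on the log2 scale. By CPM the joint level there was -0.570 in the other genes and -0.170 in the stable genes. The medians of the joint level by CPM in the stable genes were -0.0323 at 24 h, 0.0346 at 48 h and -0.0346 in methanol, and in the others 0.0911, 0.0584 and -0.179. A joint level over 0.2 from the mean occurred in 10 libraries for the stable genes and in 29 for the others. Between replicates of a group the SDs of the joint level were closer, 0.0994 and 0.112.

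**Figure D5:**
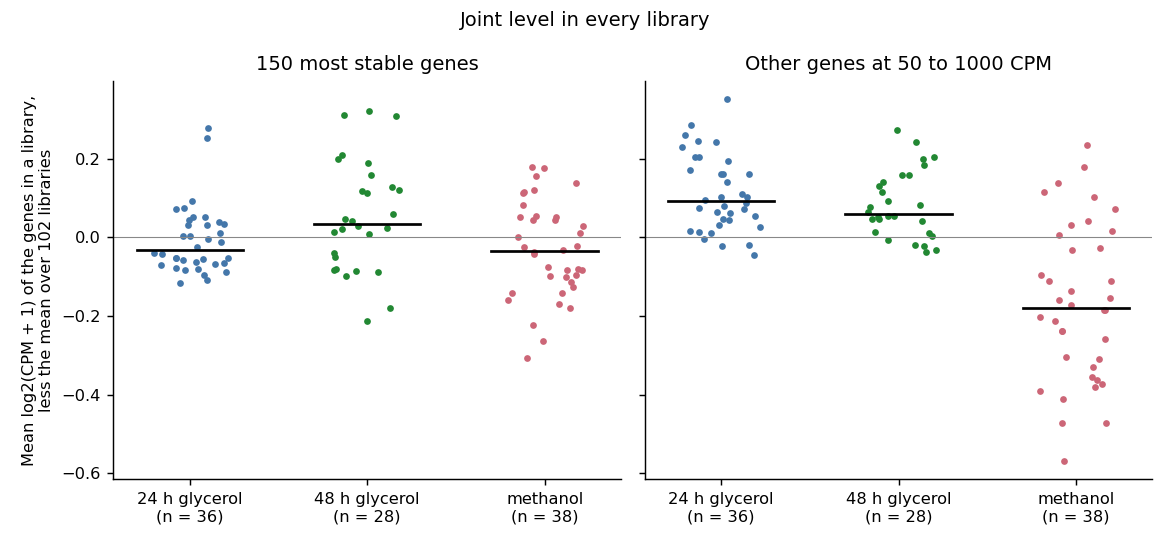
Mean log2(CPM + 1) of the 150 stable genes (left) and of the other genes at 50 to 1000 CPM (right) in each library (points), less the mean over all libraries, by condition, with the median as a bar. The stable genes have medians between -0.0346 and 0.0346, and the other genes fall from 0.0911 at 24 h glycerol to -0.179 in methanol.

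After the joint level, libraries also differed in how far the single genes scattered around their means. The SD over the 150 genes of their differences from their own means had a median of 0.274 over libraries and ran from 0.195 in Y-48124 48 h glycerol replicate D to 0.617 in Y-48124 24 h glycerol replicate B. The joint level of this library, 0.279, was also the highest at 24 h glycerol. In the 6 libraries with under 1000000 counts the median scatter was 0.360 and in the others 0.272. Without those 6 libraries 136 of the 150 genes were chosen again.

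Positions and gene structure were not used by the rule. The genes were spread over the genome, with 40 on chromosome 1, 39 on chromosome 2, 44 on chromosome 3 and 27 on chromosome 4, or 26.7%, 26%, 29.3% and 18%, beside 29.8%, 25.9%, 24.2% and 20.1% of the other genes at this level. A median of 588 kb separated them from the nearer end of the annotated chromosome, and 594 kb the others. There were 15 stable genes (10%) within 100 kb of an end, beside 6.76% of the others. Nearer the ends the shares were alike, with 4 stable genes (2.67%) within 50 kb, beside 2.84%, and 2 (1.33%) within 25 kb, beside 1.15%. Ends were taken from the first base and the last annotated feature, as no chromosome length was at hand.

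The annotated exons of a stable gene summed to a median of 1840 bases, from 381 in GQ67_03289 to 5004, beside 1631 bases in the other genes at this level and 1384 in all genes. A single exon was annotated for 143 of the 150 (95.3%), beside 94.5% of the others. The plus strand held 64 genes (42.7%), beside 50.1% of the others. In structure the stable genes were thus close to other genes of their level, with somewhat longer transcripts by the median.

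Overlap with a neighbour matters for a count, since the counting was not stated to use strand, and reads from overlapping stretches may be assigned to either gene. The spans of 53 stable genes (35.3%) overlapped another annotated gene, beside 35.5% of the others. Among the named genes these included GQ67_04628, GQ67_03088, GQ67_00948, GQ67_03604, GQ67_03264 and GQ67_04465. No check for near-identical copies elsewhere in the genome was possible without its sequence.

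Of the 150 genes, 13 (8.67%) lay next to another stable gene, and 5.60% of the other genes at this level lay next to a stable gene. The 13 genes formed 6 runs of adjacent stable genes, the longest of 3 genes on chromosome 4. In it GQ67_05322 (1756844 to 1757260, plus strand) overlapped GQ67_05321 (1757129 to 1759581, minus strand) by 132 bases, which made them also the closest pair, and GQ67_05320 (1759685 to 1762357, minus strand) followed. GQ67_05322 had medians of 52.1, 64.9 and 68.3 CPM in the order 24 h glycerol, 48 h glycerol, methanol, GQ67_05321 had 82.1, 78.0 and 68.1, and GQ67_05320 had 105, 129 and 134. GQ67_05322 and GQ67_05320 had their lowest medians at 24 h glycerol and GQ67_05321 in methanol.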

How the data were processed

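Per the labels, RNA of nontransgenic cultures was sequenced as short paired-end reads. The authors aligned reads with STAR 2.5.3a and quantified genes with RSEM 1.3.0 on their Y-11430 assembly, whose annotation gave positions, and deposited 1 table of expected counts, all of them whole numbers, and 1 of log2(TPM + 1). A RefSeq table for the GS115 assembly listed 5040 genes, and 0 identifiers matched it. Library totals were 70901 to 16336681 counts, which bounds the precision of low values, and errors from them cover counting only.

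Strain, condition and replicate letter came from the labels. Levels were log2(CPM + 1) with a pseudocount of 1, and replicate spread was pooled within groups. The 5 contrasts were fitted in edgeR 4.0.16 (R 4.3.3) to 5087 genes with TMM, filterByExpr, a mean per strain and condition and robust quasi-likelihood F tests, with Benjamini-Hochberg adjustment at 0.05. The script was tested on simulated data. P-values measure only the spread between libraries, which may be technical. DESeq2 1.42.0, other scalings, filters and subsets were alternatives.

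The genes and lists were chosen with earlier results of these data known. Named genes were the 5 with the lowest SD, ranks 149 to 152, the 2 lowest SDs in each of 4 level ranges, the 3 lowest and highest replicate SDs, TPM and ranges, the 2 largest changes each way in the condition contrasts, the longest run and closest pair, and genes without any call and with narrow intervals, of which there were none.

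No library pair of a group agreed within sampling noise, as the closest had a chi-square of 1.88 per degree of freedom.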

Additional observations from a re-analysis of the deposited data

Results flagged for a closer look

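A library standing apart from its group was searched for in the 4 groups of 4 to 7 libraries, for the joint level of the 150 genes and the 5 genes with the lowest SD, 24 times in all. Chance gives about 1 in 20. The joint level gave none, and 4 values of single genes were singled out, all in methanol. GQ67_00144 had 581 CPM in Y-48123 replicate C, where the other 3 libraries had 276 to 317, and this library was also far from its group over all genes at this level. GQ67_04628 had 365 CPM in Y-17741 replicate A, where the other 3 had 306 to 315. GQ67_03088 had 72.7 CPM in Y-17741 replicate D, where the other 3 had 60.6 to 62.1, and 72.1 CPM in Y-11430 replicate F, where the other 6 had 50.8 to 58.9. The last 3 are under 1.5-fold from their groups, and groups of 3 or fewer libraries were not examined.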

How the results depend on the processing

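Of the 150 genes, 84 were chosen again with TMM, 90 with RLE size factors and 86 with the median absolute deviation in place of the SD. A window of 100 to 1000 CPM kept 90, since it drops the 60 genes below 100 CPM. Leaving out 24 h glycerol kept 80, leaving out 48 h glycerol 94 and leaving out methanol 55, and for these and the scalings the cause was not tested. All other alternatives kept more than 100 genes. These were the deposited TPM, pseudocounts of 0.5 and 5, the range in place of the SD, windows from 50 or from 1 CPM without an upper bound, libraries under 1000000 counts left out (136), the group of 1 library left out, each strain left out, and, chosen after seeing the data, the 6 libraries far from their groups left out. The median replicate SD lay between 0.185 and 0.275 and the median difference in a strain left out between 0.146 and 0.156 under their alternatives.

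The counts of genes called in the contrasts stayed within 1.5 times under RLE size factors, no filter, DESeq2, library totals (added after seeing the data, condition contrasts only) and without shallow libraries. A minimum of 2-fold left 0 and 0 genes in the 2 condition contrasts. Without the libraries of 1 letter the counts were 89 to 103 for methanol against 48 h glycerol, 100 to 110 for 48 h against 24 h glycerol, 45 to 86 for strains at 24 h, 16 to 63 for strains at 48 h and 107 to 136 for strains in methanol, with the lowest strain counts at 24 h and 48 h glycerol both without letter B. With the replicate letter as a replicate block they were 105, 112, 78, 64 and 133. Deviations of same-lettered libraries of a strain correlated at a median of -0.0171 over 83 pairs of conditions, and 16 exceeded 0.1. With different letters the median was 0.00686 over 234 pairs, and 58 exceeded 0.1. By the median, libraries with the same letter were thus no more alike. Paired libraries need not have correlated deviations, so whether the letters paired the libraries was not settled. For 34 named genes, 35 of 680 refitted fold changes lost the call, 16 gained one, and 4 turned from higher to lower, all 4 with library totals and for methanol against 48 h glycerol, with log2 fold changes of -0.0954 in GQ67_04257, -0.00432 in GQ67_00696, -0.0461 in GQ67_05349 and -0.0103 in GQ67_02175. Depth limits the lowest values, as the 150 genes had 2 to 62 counts in X-33 methanol replicate C.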
